A study of Mus musculus with 6 samples.

Results

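The insulin and insulin-like growth factor (IGF) genes that act upstream of mTORC1 were examined in embryonic mouse lungs of the stage labelled E11.5dpc, when the first branches form. The set has 10 genes, which were chosen by symbol from 23420 listed genes: the ligands *Igf1* and *Igf2*, the receptors *Igf1r* and *Insr*, the receptor substrates *Irs1* and *Irs2*, the adaptor *Grb10*, and the binding proteins *Igfbp2*, *Igfbp3* and *Igfbp5*. Control lungs were Raptorf/+; ShhCre/+, with 1 floxed *Rptor* allele, and mutant lungs were Raptorf/f; ShhCre/+, with both alleles floxed, so that both groups carried ShhCre, a Cre recombinase inserted into *Shh*. *Shh* is expressed in the lung epithelium, so that Cre acts there, whereas RNA was taken from whole lungs with their mesenchyme, vessels and blood. Each group had 3 libraries, and each library was a pool of 3 or 4 lungs of the same genotype.

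IGF1 and IGF2 bind the IGF1 receptor, and IGF2 also binds a form of the insulin receptor. Both receptors are tyrosine kinases that recruit IRS1 and IRS2, which pass the signal through PI3-kinase and AKT to mTORC1. GRB10 binds the active receptors and restrains them, and it is itself phosphorylated and stabilised by mTORC1. The secreted IGF-binding proteins hold IGFs outside the cell. In mouse embryos *Igf2* is expressed from the paternal allele and *Grb10* mainly from the maternal one, and IGF signaling is a main driver of fetal growth.

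All 10 genes passed the filter on low values, which asked for 1 normalized count or more in 3 of the 6 libraries and left 17168 genes for testing. A normalized count is the number of reads of a gene divided by a size factor of its library. The values of a library summed to between 20705058 and 20865998, and the reads recovered from 5 of the 6 libraries numbered between 20197642 and 21276090. Fold changes are mutant over control on the log2(normalized count + 1) scale, from limma fitted to all tested genes. Control pool 3 stood apart from the other control pools for these genes. Over all tested genes its deviations from the group mean were about as large as those of control pool 2. Their SD on the log2 scale was 0.316 for control pool 3, 0.312 for control pool 2 and 0.257 for control pool 1.

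The targeted gene was close to equal in both groups, as counted over the whole gene in whole lungs. *Rptor* had 2126, 2193 and 2279 normalized counts in the 3 control libraries, against 2023, 2137 and 2148 in the 3 mutant libraries (here and below in the order of pools 1, 2 and 3). The groups overlapped (log2 fold change -0.065, standard error 0.046, limma adjusted p = 0.584), so these counts do not check the genotype labels. Of 18 epithelial marker genes, 17 were lower in mutant lungs, with a median log2 fold change of -0.45, and their summed normalized counts were 16823 to 20395 in control and 12939 to 14176 in mutant pools. All 12 mesenchymal markers were higher in mean (median 0.20, summed counts 92823 to 99628 and 113499 to 121706). Both lists were chosen with earlier results of these data known. In bulk RNA, fewer cells of a type and less RNA per cell cannot be told apart.

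IGF transcripts were abundant in these lungs, and the system was dominated by a single ligand and a single binding protein. Levels were compared between genes per kb of exon. The length covers all annotated exons of a gene rather than the transcripts expressed here, so levels and folds between genes are approximate. *Igf2* had 12425 ± 305 normalized counts per kb (SD, n = 3 pools) in control lungs and ranked 31st of 16006 tested genes with a known length. *Igfbp5* followed at 9865 ± 791 (rank 45), *Grb10* at 5321 ± 335 (rank 94) and *Igfbp2* at 2111 ± 214 (rank 332). The other 6 genes lay far lower. *Igfbp3* was at 365 ± 92.1 and *Igf1r* at 228 ± 40.0 per kb. *Igf1* was at 190 ± 16.3, *Irs1* at 188 ± 12.0 and *Irs2* at 162 ± 9.06. *Insr* was the lowest at 93.3 ± 17.2. The ranges of mean ± SD overlapped among *Igf1r*, *Igf1* and *Irs1*. These genes were measured in the same pools, so the spread between pools cannot decide whether their levels differ. The level of *Igf2* per kb was 65.5 times that of *Igf1*, that of *Igf1r* was 2.44 times that of *Insr*, and that of *Grb10* was 28.2 times that of *Irs1*.

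**Figure D1:**
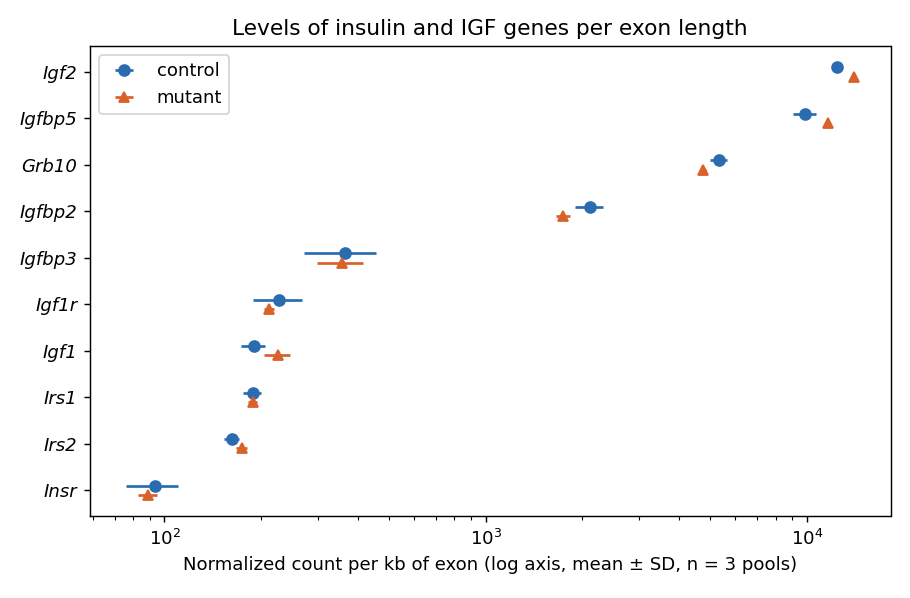
Normalized counts per kb of exon (log axis) for the 10 insulin and IGF genes, as mean ± SD over 3 control pools (circles) and 3 mutant pools (triangles). *Igf2*, *Igfbp5*, *Grb10* and *Igfbp2* lie at 1743 per kb or above in both groups, and the other 6 genes lie at 365 per kb or below.

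Insulin itself was not detected. *Ins1* and *Ins2*, which encode insulin, were at 0 in each of the 6 libraries, although *Ins2* lies 11.8 kb from *Igf2* on chromosome 7 of GRCm38. A count of 0 allows up to 3 reads in a library, and this limit covers counting error only. The receptor *Insr* was nevertheless read at 1124 to 1555 normalized counts in every library.

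In the comparison of mutant with control lungs, the 2 ligands and *Igfbp5* were higher and *Grb10* and *Igfbp2* were lower, with no overlap between the groups, while the receptors, *Irs1*, *Irs2* and *Igfbp3* overlapped. The differences were small: among these 5 genes the change in mean ran from -17.4% (*Igfbp2*) to 18.6% (*Igf1*). By limma over all 6 pools, 0 of the 10 genes had an adjusted p under 0.05, which 0.501% of all tested genes had. An unadjusted p under 0.05 was reached by 5 of the 10, against 13.6% of all tested genes, with 3 higher (background 6.67%) and 2 lower (background 6.89%). The same 5 genes had groups that did not overlap, 3 higher (background 9.77%) and 2 lower (background 10.5%), against 20.2% of all tested genes in either direction. The median log2 fold change of the 10 genes was -0.01, and that of all tested genes was -0.0021. In edgeR's quasi-likelihood test on the 5 libraries with recovered reads, which leaves out control pool 3, 4 of the 10 genes had an adjusted p under 0.05 (background 3.68% of 14791 genes) and 6 an unadjusted p under 0.05 (background 18.7%).

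**Figure D2:**
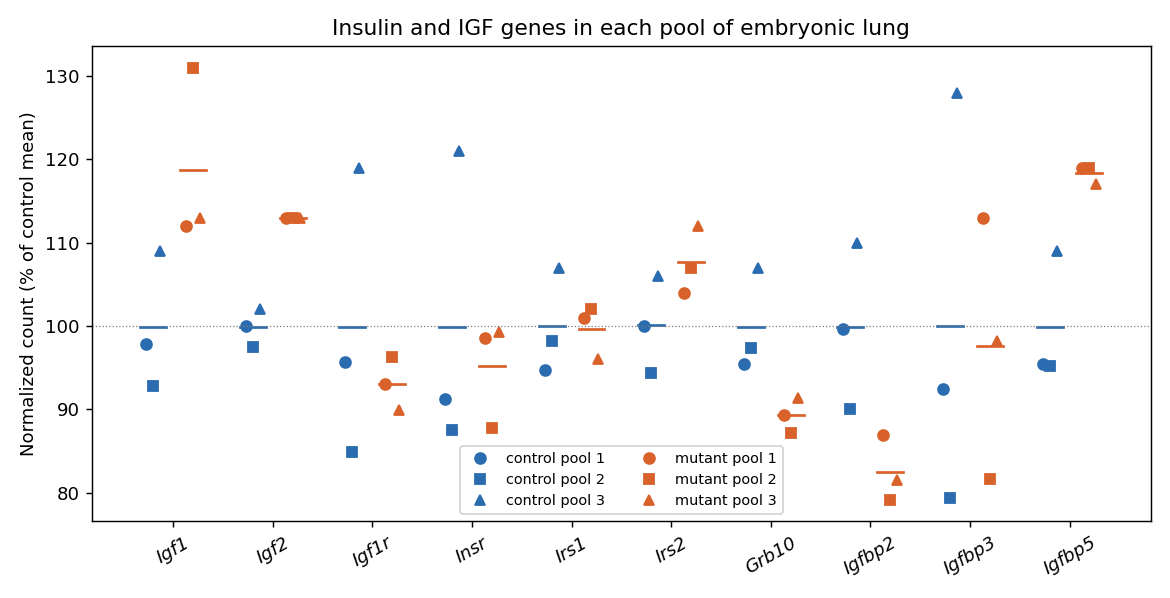
Normalized count of each gene in each of the 6 pools, as a percentage of the mean of the 3 control pools. Lines mark group means. *Igf2* sits at 113% in all 3 mutant pools and *Igfbp5* at 117% to 119%, above all 3 control pools, and control pool 3 (blue triangle) is the highest control pool for each gene.

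Among the ligands, *Igf2*, a main fetal growth factor, had the smaller spread. Its locus spans 142650766 to 142666816 on chromosome 7 (GRCm38). It had 71113, 69356 and 72851 normalized counts in the control lungs, against 80053, 80328 and 80327 in the mutant lungs. The lowest mutant pool exceeded the highest control pool, and the mutant pools had a coefficient of variation of 0.198%, against 2.46% in the control pools. The fold change was 0.17 ± 0.039 on the log2 scale (SE, 95% interval 0.088 to 0.26, limma adjusted p = 0.0923). *Igf2* shares 3596 exon bases with another protein-coding gene on the same strand, *Gm49394*, and 98 with the antisense gene *Igf2os*. How reads that fall in both were counted is not given in the sources used here.

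*Igf1*, on chromosome 10 from 87858265 to 87937042, encodes the ligand that mediates much of the growth response to growth hormone after birth. It had 1836, 1742 and 2056 normalized counts in the control lungs, against 2101, 2468 and 2114 in the mutant lungs. The groups did not overlap, but control pool 3 came close to mutant pools 1 and 3. The fold change was 0.25 ± 0.076 on the log2 scale (SE, 95% interval 0.077 to 0.41, limma adjusted p = 0.193). *Igf1* was 2.57% ± 0.154 (SD, n = 3) of the summed counts of both ligands in control pools and 2.70% ± 0.242 in mutant pools, and *Igf2* made up the other 97.4% and 97.3%.

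*H19*, the noncoding gene 72.6 kb from *Igf2* that is expressed from the opposite parental allele, gave a reference within the same imprinted region. It had 110100, 104740 and 111016 normalized counts in the control lungs, against 113495, 108922 and 113618 in the mutant lungs, with overlapping groups (log2 fold change 0.045, standard error 0.043, limma adjusted p = 0.703). The log2 ratio of *Igf2* to *H19* within a pool does not depend on the size factor. It took values of -0.63, -0.59 and -0.61 in the control lungs, against -0.50, -0.44 and -0.50 in the mutant lungs. The difference was 0.13, and the groups did not overlap (two-sided exact permutation test, p = 0.1, the smallest that 3 pools against 3 allow, and 0.5 when adjusted over the 5 ratios tested).

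Among the receptors, neither gene was separated between the groups. *Igf1r*, the receptor for both IGFs, lies on chromosome 7 from 67952827 to 68233668. It had 3659, 3246 and 4560 normalized counts in the control lungs, against 3553, 3682 and 3437 in the mutant lungs. The mutant pools lay inside the range of the control pools, whose lower end was control pool 2 and whose upper end was control pool 3. The log2 fold change was -0.09 (95% interval -0.31 to 0.13, limma adjusted p = 0.742), and it was 0.045 without control pool 3. *Insr*, the insulin receptor, on chromosome 8 from 3122061 to 3279617, had 1170, 1124 and 1555 in the control lungs, against 1265, 1127 and 1274 in the mutant lungs. Its log2 fold change was -0.057 (95% interval -0.30 to 0.18, limma adjusted p = 0.866), and it was 0.089 without control pool 3 and 0.0004 without mutant pool 2. For both receptors the sign turned when control pool 3 was left out, and for *Insr* also when mutant pool 2 was. The intervals include changes of up to 0.30 on the log2 scale in the negative direction. Within a pool the log2 ratio of *Igf1r* to *Insr* was 1.58 ± 0.061 (SD, n = 3) in control and 1.54 ± 0.15 in mutant pools (exact permutation test, p = 0.8).

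Among the substrates and adaptors, *Grb10* was the gene with separated groups. It lies on chromosome 11 from 11930508 to 12038683. It had 46150, 47093 and 51838 normalized counts in the control lungs, against 43197, 42183 and 44221 in the mutant lungs. The highest mutant pool stayed under the lowest control pool. The fold change was -0.16 ± 0.049 on the log2 scale (SE, 95% interval -0.27 to -0.052, limma adjusted p = 0.191). Without control pool 3 the log2 fold change was -0.11.

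*Irs1* and *Irs2*, the docking proteins of both receptors, overlapped between the groups. *Irs1*, on chromosome 1 from 82233101 to 82291416, had 1632, 1693 and 1845 normalized counts in the control lungs, against 1745, 1754 and 1656 in the mutant lungs (log2 fold change -0.0029, 95% interval -0.13 to 0.12, limma adjusted p = 0.988), and its sign turned without control pool 3 (0.047) and without mutant pool 3 (0.024). In the annotation *Irs1* shares 2822 exon bases with a gene on the opposite strand, *Gm9747*, and whether reads were counted by strand is not given in the sources used here. *Irs2*, on chromosome 8 from 10984681 to 11008458, had 1024, 965.9 and 1080 in the control lungs, against 1062, 1096 and 1145 in the mutant lungs. Mutant pool 1 lay below control pool 3, and the log2 fold change was 0.11 (standard error 0.058, 95% interval -0.024 to 0.24, limma adjusted p = 0.456). It was 0.15 without control pool 3, when the groups no longer overlapped (adjusted p = 0.195), and 0.065 without control pool 2, and the adjusted p ranged from 0.195 to 0.783 over all alternatives. The within-pool log2 ratio of *Irs1* to *Irs2* was 0.75 ± 0.071 in control and 0.64 ± 0.10 in mutant pools (SD, n = 3, exact permutation test, p = 0.3).

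**Figure D3:**
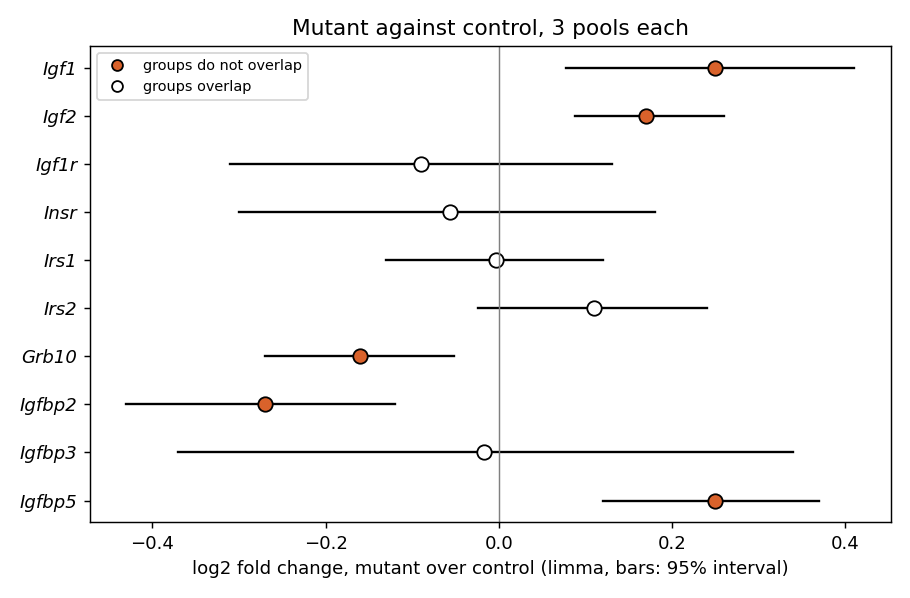
The log2 fold change (mutant over control) of each gene with its 95% interval from limma, 3 pools in each group. Filled points mark genes whose groups did not overlap, which are *Igf1*, *Igf2* and *Igfbp5* on the higher side and *Grb10* and *Igfbp2* on the lower side. The intervals of the other 5 genes include 0.

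The binding proteins *Igfbp2* and *Igfbp5* are neighbours on chromosome 1 and differed in opposite directions. *Igfbp2* runs from 72824503 to 72852474 on the plus strand and *Igfbp5* from 72857932 to 72874884 on the minus strand, so that their ends face each other across 5.46 kb and their promoters lie on the outer sides. The 250 bases before the RefSeq start of each gene (GRCm38.p6) are shown for this pair because these neighbours differed in opposite directions. The table has 2 starts for *Igfbp2*, and the first is shown (chr1:72824230-72824479, plus strand). That of *Igfbp5* is chr1:72874866-72875115, minus strand. Capitals mark the GC box GGGCGG on either strand.
Igfbp2: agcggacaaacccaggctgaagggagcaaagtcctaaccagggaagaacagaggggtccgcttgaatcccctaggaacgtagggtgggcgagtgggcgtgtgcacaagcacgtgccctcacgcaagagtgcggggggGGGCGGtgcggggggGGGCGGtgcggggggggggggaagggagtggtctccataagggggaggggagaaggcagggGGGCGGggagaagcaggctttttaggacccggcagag
Igfbp5: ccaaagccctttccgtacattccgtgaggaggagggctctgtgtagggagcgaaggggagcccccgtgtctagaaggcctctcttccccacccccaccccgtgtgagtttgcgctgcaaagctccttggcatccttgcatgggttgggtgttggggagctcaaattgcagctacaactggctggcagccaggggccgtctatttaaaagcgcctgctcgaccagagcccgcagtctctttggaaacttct

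*Igfbp2* has 3 GC boxes in this window, and 0 in that of its other start, and *Igfbp5* has 0. A GC box was found in 32.7% of all 32851 promoters of this length, and in 7 of the 14 promoters of the set, which belong to 6 of the 9 genes with an entry. Neither the FOXO motif GTAAACA (3.17% of all promoters, both strands) nor the TATA box TATAAA (12.4%) was found in any of the 14 promoters of the set. None of the 3 motifs contains another. A match in a sequence is a description only, and the lack of one says only that these letters are not in this window.

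*Igfbp5*, the main binding protein of this tissue, had 56601, 56410 and 64728 normalized counts in the control lungs, against 70288, 70707 and 69396 in the mutant lungs. The mutant pools lay close together and above the control pools, with control pool 3 between the other control pools and the mutant pools. The fold change was 0.25 ± 0.055 on the log2 scale (SE, 95% interval 0.12 to 0.37, limma adjusted p = 0.0931). *Igfbp2*, which is widely expressed in fetal epithelia, had 3889, 3509 and 4299 in the control lungs, against 3389, 3089 and 3179 in the mutant lungs. No mutant pool reached the lowest control pool, and the fold change was -0.27 ± 0.069 on the log2 scale (SE, 95% interval -0.43 to -0.12, limma adjusted p = 0.129).

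The log2 ratio of *Igfbp5* to *Igfbp2* within a pool took values of 3.86, 4.01 and 3.91 in the control lungs, against 4.37, 4.52 and 4.45 in the mutant lungs. The groups were separated by 0.52 on average, and the SD was 0.073 in control and 0.071 in mutant pools. This ratio was chosen after its values were seen and was not tested. Of the summed counts of the 3 binding proteins, *Igfbp2* was 6.06% ± 0.276 in control and 4.32% ± 0.193 in mutant pools (SD, n = 3). The log2 ratio of the 3 binding proteins together to both ligands together was -0.19 ± 0.086 in control and -0.15 ± 0.015 in mutant pools, and the groups overlapped through control pool 3 (exact permutation test, p = 0.4). The difference, 0.039 over all pools, was 0.088 without control pool 3, 0.019 without control pool 2 and 0.0092 without control pool 1.

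**Figure D4:**
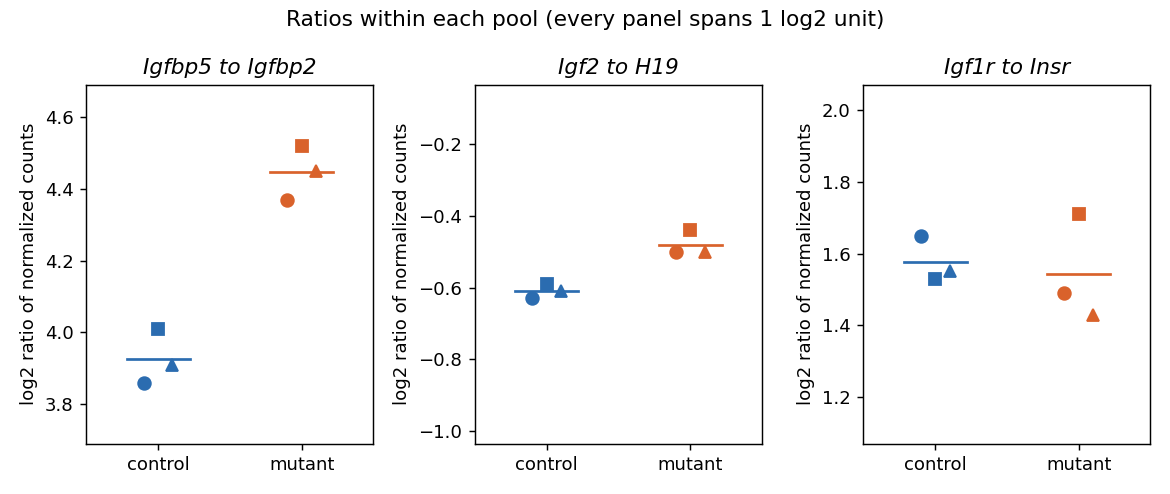
Log2 ratios of normalized counts within each pool for *Igfbp5* to *Igfbp2*, *Igf2* to *H19* and *Igf1r* to *Insr*, with lines at the group means and panels of equal height. The groups are separated by 0.52 in the first panel and 0.13 in the second, and they overlap in the third.

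*Igfbp3*, which carries most IGF in adult blood, lies on chromosome 11 from 7206086 to 7213923 and varied most between pools of the same genotype. It had 1057, 907.1 and 1464 normalized counts in the control lungs, against 1293, 933.4 and 1122 in the mutant lungs. The coefficient of variation was 25.2% in control pools, and the 95% interval of the log2 fold change (-0.017) ran from -0.37 to 0.34 (limma adjusted p = 0.974). It was 0.18 without control pool 3 and 0.10 without mutant pool 2.

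The direction of these differences lay beside shifts in cell type markers. The 3 higher genes had log2 fold changes of 0.17 to 0.25, where the mesenchymal markers had a median of 0.20. Smooth muscle markers had a median of 0.32 (4 of 6 higher at an unadjusted p under 0.05, background 6.67%) and endothelial markers 0.19 (5 of 8). Of their defining markers, *Acta2* was at 0.36 and *Cdh5* at 0.20 without overlap, and *Pecam1* at 0.07 with overlapping groups. Without control pool 3, *Acta2* was at 0.24, *Cdh5* at 0.16 and *Pecam1* at -0.0014. The lower *Igfbp2* was at -0.27 and *Grb10*, also lower, at -0.16. The epithelial markers had a median of -0.45, and 16 of 18 were lower at an unadjusted p under 0.05 (background 6.89%). All marker lists were chosen with earlier results of these data known, so these counts are not independent of the data. The epithelial list includes *Sox2*, which the paper reports as sharply reduced in its RNA-Seq at this stage, and *Shh*, into which Cre was inserted. Among the defining markers of epithelium and mesenchyme, *Cdh1* was lower by the limma test (log2 fold change -0.97, adjusted p = 0.00728). *Epcam* was at -0.27 and *Nkx2-1* at -0.25, while *Pdgfra* was at 0.094 and *Tbx4* at 0.11, with overlapping groups for these 4. Without control pool 3, *Epcam* was at -0.39 (limma adjusted p = 0.0113), *Nkx2-1* at -0.37 (0.000995) and *Pdgfra* at 0.22 (0.0169), and *Tbx4* turned to -0.027 (0.88). Liver markers, from an organ rich in *Igf2*, summed to 318 to 487 normalized counts in control and 284 to 346 in mutant pools, with *Alb* at 150.2 to 268.1 over all 6 pools. Heart markers summed to 1004 to 1106 and 731 to 838. Macrophage markers summed to 1953 to 2904 and 2603 to 2726. The median log2 fold change was 0.20 for 6 mesothelial markers, of which 3 were higher at an unadjusted p under 0.05 and 1 was lower in mean. This list shares *Krt19* with the epithelial one. Its defining markers *Wt1* (0.31, limma adjusted p = 0.0496) and *Upk3b* (0.20, adjusted p = 0.219) did not overlap between the groups. The median was -0.014 for 6 red blood cell markers and -0.032 for 7 neural markers, and *Hba-a1* was the only listed marker at 0 in all 6 pools. The part of cell composition in the IGF differences was not tested.

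Control pool 3 stood apart for this gene set. It had the highest value of the 3 control pools for each of the 10 genes, while it was the highest control pool for 38.8% of all tested genes. Control pool 2 was the lowest of all 6 pools for 7 of the 10. The share of all tested genes was not computed for this count, so it cannot be read as particular to this set. The coefficient of variation was smaller in the mutant than in the control pools for 9 of the 10 genes, with *Igf1* as the exception, and for 62.0% of all tested genes with a defined value. Without control pool 3, limma gave adjusted p = 0.000434 for *Igfbp5* (log2 fold change 0.31), 0.00764 for *Igf2* (0.19) and 0.0219 for *Igf1* (0.31), so that 3 of the 10 genes were called, against 2.75% of all tested genes. *Igfbp2* was at -0.20 without it (adjusted p = 0.0571) and at -0.35 without control pool 2 (adjusted p = 0.0344). EdgeR on the same 5 libraries gave adjusted p = 0.00145 for *Igfbp5*, 0.0186 for *Igf1*, 0.0204 for *Igf2*, 0.0437 for *Igfbp2* and 0.147 for *Grb10*. Over all alternatives the adjusted p ranged from 0.000434 to 0.622 for *Igfbp5*, from 0.00764 to 0.827 for *Igf2*, from 0.0186 to 0.487 for *Igf1*, from 0.0344 to 0.429 for *Igfbp2* and from 0.103 to 0.643 for *Grb10*, and each of these 5 genes kept its direction in all 14.

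**Figure D5:**
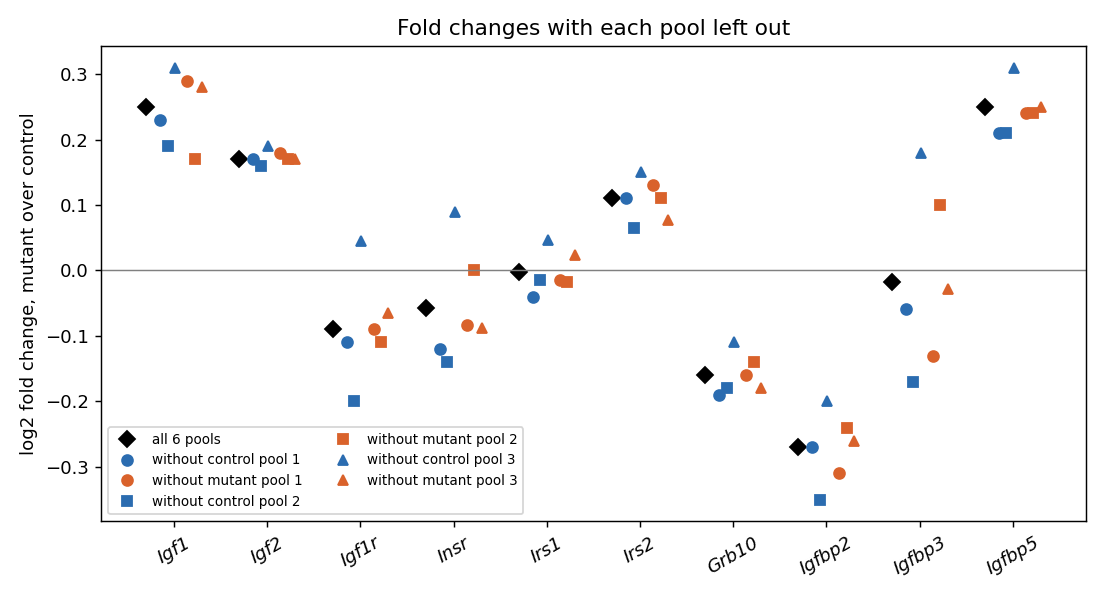
The log2 fold change (mutant over control) of each gene with all 6 pools (black) and with each pool left out in turn. *Igf1*, *Igf2*, *Irs2* and *Igfbp5* stay above 0 and *Grb10* and *Igfbp2* stay below 0, while *Igf1r*, *Insr*, *Irs1* and *Igfbp3* cross 0 when control pool 3 is left out, and *Insr*, *Irs1* and *Igfbp3* also when 1 of the mutant pools is.

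A wider list of 55 insulin and IGF pathway genes outside the set described above had 53 tested genes, with *Ins1* and *Ins2* at 0. At an unadjusted p under 0.05 there were 9 of the 53 (background 13.6%), 6 higher and 3 lower, and 0 had an adjusted p under 0.05 in limma. By edgeR on 5 libraries, 15 of the 50 genes that it tested had an unadjusted p under 0.05 (background 18.7%) and 3 an adjusted p under 0.05 (background 3.68%), which were *Pappa* (0.0436), *Shc1* (0.0456) and *Pik3r3* (0.0459). The groups did not overlap for 13 (24.5%, against 20.2%). The median log2 fold change was 0.0051.

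Of the 10 other tested binding proteins, proteases and inhibitors of these proteases, 3 were higher at an unadjusted p under 0.05 (background 6.67%). *Igfbp4*, the second binding protein by count, was at 9796 ± 185 normalized counts in control and 10903 ± 298 in mutant pools (SD, n = 3, log2 fold change 0.15, limma adjusted p = 0.121). *Pappa*, the protease that cleaves IGFBP4 and IGFBP5 and so frees IGF, had 289.8, 319.2 and 228.6 in the control lungs, against 363.7, 415.7 and 402.4 in the mutant lungs. Its groups did not overlap, and the fold change was 0.51 ± 0.12 on the log2 scale (SE, limma adjusted p = 0.114). *Igfbp7* was at 47.3 ± 7.88 and 76.6 ± 8.65 (log2 fold change 0.69, adjusted p = 0.149). *Igf2r*, the receptor that clears IGF2, was at 12779 ± 405 and 12074 ± 9.24, with no overlap between the groups (log2 fold change -0.081, limma adjusted p = 0.375). Its SD in mutant pools is also below what counting error alone gives.

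Among genes that act on the receptors and on PI3-kinase, 0 had an adjusted p under 0.05 in limma. An unadjusted p under 0.05 was reached by 3 of 9 genes that restrain the receptors and 2 of 8 adaptors (background 13.6%). It was reached by 0 of 6 lipid phosphatases and inhibitors of AKT. The genes with an unadjusted p under 0.05 follow. *Pik3r3*, a regulatory subunit of PI3-kinase, had 1541, 1442 and 1529 normalized counts in the control lungs, against 1323, 1141 and 1279 in the mutant lungs, with no overlap (log2 fold change -0.27, standard error 0.062, limma adjusted p = 0.101), and it was the 1 gene of 10 PI3-kinase and AKT genes with an unadjusted p under 0.05 (background 13.6%). *Enpp1*, an inhibitor of the insulin receptor, was at 121 ± 7.59 in control and 171 ± 28.5 in mutant pools (log2 fold change 0.49, adjusted p = 0.168). *Socs3*, a feedback inhibitor, was at 508.3 to 549.1 and 573.2 to 633.4 (0.16, adjusted p = 0.32), and *Ptprf*, a receptor-type phosphatase, at 9240 ± 301 and 8492 ± 97.3 (-0.12, adjusted p = 0.195). The adaptor *Shc1* was at 3557 ± 129 and 3920 ± 131 (0.14, adjusted p = 0.199). *Irs4* had 106.1, 4.132 and 215.7 in the control lungs, against 4.087, 4.902 and 0.9815 in the mutant lungs, so that control pool 2 lay among the mutant pools (log2 fold change -3.66, standard error 1.12, adjusted p = 0.191).

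The RNA-binding proteins that bind *Igf2* mRNA overlapped between the groups. *Igf2bp1* was at 5797 to 7310 normalized counts in control and 5821 to 5908 in mutant pools, *Igf2bp2* at 7086 to 7684 and 7266 to 7448, and *Igf2bp3* at 4430 to 4896 and 4532 to 4659. Their log2 fold changes were -0.11, 0.0051 and -0.02, and without control pool 3 that of *Igf2bp1* was -0.00072, that of *Igf2bp2* 0.042 and that of *Igf2bp3* 0.013. The 4 FOXO genes, transcription factors that insulin and IGF signaling hold out of the nucleus, were each higher in mean, with a median log2 fold change of 0.12 and with 0 at an unadjusted p under 0.05 in limma. By edgeR on 5 libraries 2 of the 4 had an unadjusted p under 0.05 (background 18.7%) and 0 an adjusted one. These 2 were *Foxo1* (adjusted p = 0.0754) and *Foxo4* (adjusted p = 0.151), which are named here after their values were seen.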

How the data were processed

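Whole lungs at E11.5dpc were pooled by genotype (3 or 4 lungs), and 3 control and 3 mutant pools were sequenced on a BGISEQ-500. Per the labels, reads were processed with Trim Galore, HISAT2 (mm10), featureCounts and DESeq2, with no versions given. The authors deposited signal values that are normalized counts (reads over a library's size factor) and a column of their mean. The log2 fold changes, p-values and a score for the test that were deposited with them are the authors' own comparison and were not used.

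Groups came from the sample titles. The main test was limma 3.58.1 in R 4.3.3 (trend, no block) on log2(normalized count + 1) for genes at 1 or more in 3 or more libraries, and p-values were adjusted (Benjamini-Hochberg) over all 17168 tested genes. Same-numbered pools hold different embryos, and p-values measure the spread between pools. In all 6 libraries 100% of the values were multiples of 1 step within 0.1 reads, but the step of control pool 3 (0.994) was too close to 1 to be accepted, so edgeR 4.0.16 (TMM, filterByExpr) was run on 5 libraries. Both tests were tried on simulated data whose changes were larger than those of the 10 genes and in which no pool stood apart. That trial does not bear on differences as small as those described here. Coordinates, exon lengths and overlaps are from GENCODE M21 (GRCm38), and promoters from RefSeq (GRCm38.p6), with an entry for 9 of the 10 genes. The symbols of 27 listed genes had been turned into dates.

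The genes and lists were chosen with earlier results of these data known. The genes named are the 10 of the set, *Rptor*, 7 fixed genes and those with an unadjusted p under 0.05 of the wider list (at most 15), and fixed cell type markers. Alternatives were limma without trend, upper-quartile (75th percentile) and TMM scaling, no filter or a minimum of 10 in all libraries, 0.1 as the pseudocount, each pool left out, the replicate number as a block, and edgeR.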

Additional observations from a re-analysis of the deposited data

How the results depend on the processing

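No direction changed with the scaling, filter, pseudocount or variance model for the 10 genes or *Rptor*. With single pools left out, the fold change on the log2 scale ran from -0.20 to 0.045 for *Igf1r*, from -0.14 to 0.089 for *Insr*, from -0.041 to 0.047 for *Irs1* and from -0.17 to 0.18 for *Igfbp3*, and edgeR on 5 libraries gave 0.041, 0.09, 0.046 and 0.18 for these 4 genes. The difference in log2 ratio ran from -0.0037 to 0.12 for *Igf1* to *Igf2*, from -0.12 to 0.023 for *Igf1r* to *Insr* and from 0.0092 to 0.088 for binding proteins to ligands. The count of all genes with an adjusted p under 0.05, 86 in all 6 pools, was 8 without the trend, 18 without a filter and 545 with edgeR, and between 1 and 468 with 1 pool left out, the highest without control pool 3 (147 without control pool 2, 12, 21 and 1 without mutant pools 1, 2 and 3, and 1 without control pool 1). Of the 10 genes, between 0 and 3 passed the adjusted threshold with 1 pool left out and 4 with edgeR. At an unadjusted p under 0.05 there were between 5 and 6 with 1 pool left out and 1 without a filter. The wider list had between 8 and 16 such genes with 1 pool left out (14 without control pool 2, 16 without control pool 3) and 15 with edgeR. The causes were not tested.

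The deviations of same-numbered pools correlated at -0.01888, 0.10092 and 0.03071. Not every pool correlated best with its own number, but the highest value of all pairs, 0.10092, was between same-numbered pools. Deviations from a group mean sum to 0, so these correlations depend on each other and cannot decide whether same-numbered pools are paired. With the replicate block 71 genes had an adjusted p under 0.05, 0 of the 10 genes did, 5 had an unadjusted p under 0.05, and no call for these 10 or *Rptor* changed.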
